A study of Sus scrofa with 3 samples.

Results

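The let-7 family with miR-98 consists here of 9 microRNAs (miRNAs, the short RNAs that pair with messenger RNAs and repress them): let-7a, let-7b, let-7c, let-7d, let-7e, let-7f, let-7g, let-7i and miR-98. Members were taken by name: a line of a library's table belonged to a member when the hairpin name, without species prefix and copy number, was that of the member. The rule uses no measured value. The 9 members gave 18 mature arms (a hairpin yields a 5p and a 3p arm), out of 976 arms of named miRNAs with a read in any library. Of these, 14 family arms and 324 arms in all reached a mean of 10 counts per 1000000 miRNA reads (CPM) and were compared between libraries. Liver came from male pigs of the Jinhua breed, late in gestation at embryonic day 90 (E90), at postnatal day 30 (P30d, labelled as the weaning stage) and at postnatal year 7 (P7y, adult), with no treatment or genetic change named. The labels speak of 3 pigs for each stage but give a single small RNA library of it, and pooling of the pigs' RNA is not stated. No stage therefore has a replicate, every comparison sets libraries against each other, and the 95% intervals below cover counting error only. Reads copied by PCR are not independent molecules, so that error may be larger than shown.

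As background, let-7 was found in the worm as a regulator of developmental timing, and in mammals its mature forms accumulate as tissues differentiate. The members share a seed, the stretch of bases 2 to 8 that selects most targets, so they are held to repress overlapping sets of messenger RNAs, among them those of LIN28B, HMGA2, IGF2BP1 and RAS genes. LIN28 proteins in turn bind let-7 precursors and block their processing, and LIN28B and its let-7 targets are active in the fetal liver. The 5p arm is the one loaded into Argonaute from these hairpins, and the 3p arm is mostly degraded. Before Dicer cuts them, most let-7 precursors are known to receive a single uridine at the 3′ end from terminal uridylyl transferases. Precursors of let-7c, of let-7e and of the let-7a copy beside miR-100 are known not to need it.

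The most copied 5p read of each member was the same in all 3 libraries, and all 9 reads were 22 bases long. They are shown because the family is defined by what they share and its members are told apart by single bases. The capitals mark the seed.
let-7a-5p: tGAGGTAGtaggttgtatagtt
let-7b-5p: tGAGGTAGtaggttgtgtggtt
let-7c-5p: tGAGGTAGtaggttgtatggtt
let-7d-5p: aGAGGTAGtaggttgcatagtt
let-7e-5p: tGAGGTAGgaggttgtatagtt
let-7f-5p: tGAGGTAGtagattgtatagtt
let-7g-5p: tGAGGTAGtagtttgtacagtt
let-7i-5p: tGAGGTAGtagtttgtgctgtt
miR-98-5p: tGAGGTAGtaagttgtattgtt

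All 9 carry the seed GAGGTAG. Counted from 1 at the 5′ end and with let-7a as reference, let-7c differs by A19G, let-7e by T9G and let-7f by G12A, each a single base. let-7b differs by A17G and A19G, let-7d by T1A and T16C, let-7g by G12T and T18C, and miR-98 by G11A and A19T. let-7i differs most from let-7a, by G12T, A17G, T18C and A19T. Over the 36 pairs of members the number of differing bases ran from 1 to 6, and 4 pairs differed by 1 base. The authors' mapping counted reads with a mismatch, so a sequencing error in a read of 1 member can produce the sequence of another, and how many reads moved this way was not tested. Members held 99.97% of the reads at E90 that lay on lines with this seed at bases 2 to 8 of the representative read, 99.95% at P30d and 99.95% at P7y. The family names therefore cover nearly all seed-bearing reads that the tables name.

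The pig hairpins lie in 7 places of the genome (coordinates of the tables, Sscrofa10.2). On chromosome 3, let-7a-2 (44864431 to 44864530), let-7f-2 (44864795 to 44864899) and let-7d (44867262 to 44867367) follow each other on the plus strand, with 264 and 2362 bases between them. On the minus strand of the X chromosome, miR-98 (51800843 to 51800961) and let-7f-1 (51801728 to 51801810) lie 766 bases apart. On the minus strand of chromosome 9, let-7a-1 (54378025 to 54378157) has miR-100 at a distance of 5221 bases and miR-125b-1 at 43031 bases. let-7c lies on chromosome 13 (191559331 to 191559438, plus strand), 641 bases from miR-99a. let-7e on chromosome 6 (51858365 to 51858473, plus strand) sits between miR-99b, 78 bases away, and miR-125a, 374 bases away. let-7g (chromosome 13, 37598987 to 37599093, plus strand) and let-7i (chromosome 5, 30021209 to 30021316, plus strand) have no other member beside them. In RefSeq's pig gene table, which is of another build (Sscrofa11.1) and was used for names and neighbours alone, let-7f-1 and miR-98 fall within HUWE1, a ubiquitin ligase gene, let-7g within WDR82, a histone methylation cofactor gene, and let-7c within a protein-coding gene without a name. Whether these are introns was not analysed here. let-7b had no line on a pig hairpin: 2541 of its 2949 5p reads at E90, 7426 of 8226 at P30d and 9722 of 12288 at P7y were placed with a mismatch at the let-7c hairpin. The mature forms of the pair of let-7a hairpins are identical, as are those of the pair of let-7f hairpins, and the authors divided such reads between copies, so the source hairpin of a let-7a or let-7f 5p read cannot be told.

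The 3 tables held 9406525, 3775157 and 9935073 reads at E90, P30d and P7y, and named miRNAs took 98.3%, 96.0% and 99.9% of them. A count of 0 allowed up to 0.325, 0.828 and 0.302 CPM. Cell type markers differed between libraries. The hepatocyte marker miR-122 held 12.8%, 21.5% and 3.79% of miRNA reads in the order E90, P30d, P7y, and its low share at P7y stands beside every P7y value below. The summed mesenchymal markers (miR-143, miR-145, miR-199a and miR-214, all 4 read in each library) held 5.93%, 6.66% and 11.4%, the erythroid markers (miR-451, miR-144 and miR-486, 3 of 3 read) 0.724%, 0.303% and 0.182%, and the leukocyte markers (miR-142, miR-223, miR-150 and miR-155, 4 of 4 read) 0.098%, 0.345% and 0.0946%. The endothelial marker miR-126 held 1.33%, 1.19% and 1.36%, and the biliary epithelial markers (miR-200a, miR-200b, miR-200c, miR-141 and miR-375, 5 of 5 read) 0.201%, 0.0454% and 0.0929%. Their part in the family's levels was not tested, and in bulk tissue fewer cells of a type cannot be told apart from less RNA per cell.

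The family took a larger share of miRNA reads in each later library. With 178999 reads it made up 1.94% of the miRNA reads of the E90 library (exact Clopper-Pearson interval 1.93 to 1.95). The P30d library gave 148372 family reads, or 4.10% (4.07 to 4.12), and the P7y library 491386, or 4.95% (4.94 to 4.97). The groups of members behind this share were not the same in the 2 steps. let-7f and let-7g together stood at 11454, 14758 and 35121 CPM at E90, P30d and P7y. The other 7 members together stood at 7868, 25853 and 14374 CPM. In these libraries the larger share at P30d thus lay mostly in the other 7 members, and that at P7y in let-7f and let-7g.

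let-7a, let-7f and let-7g, the 3 most abundant members in every library, held 77.5%, 76.8% and 90.6% of the family's 5p reads at E90, P30d and P7y. let-7a-5p stood at 3530, 16430 and 9697 CPM at E90, P30d and P7y. By CPM it was highest at P30d, where it ranked 13th among all miRNA arms, against 34th at E90 and 19th at P7y, while TMM factors, which scale libraries so that the bulk of miRNAs match, put it 0.31 higher (log2) at P7y than at P30d. let-7f-5p stood at 5974, 8010 and 16666 CPM in the same order. let-7g-5p stood at 5480, 6748 and 18456 CPM. Both were highest at P7y, where let-7g ranked 12th and let-7f 13th of all arms.

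The 6 less abundant members differed in where they were lowest. let-7i-5p, the member farthest in sequence from let-7a, stood at 1739, 3120 and 2051 CPM at E90, P30d and P7y. let-7b-5p stood at 319, 2270 and 1239 CPM, and let-7c-5p, a single base away from it, at 1629, 2122 and 861 CPM. The ratio of let-7b to let-7c reads was 0.196, 1.07 and 1.44 at E90, P30d and P7y. By summed reads let-7b was thus the rarer of the pair at E90 and the commoner afterwards, by little at P30d. By the most copied read alone let-7c stayed above let-7b, with 5986 against 4926 copies at P30d and 5495 against 5079 at P7y. Lines closest in sequence to let-7b gave 12 of the let-7c reads at E90 and 126.5 at P30d. let-7d-5p, the member that begins with A, stood at 280, 642 and 234 CPM, let-7e-5p at 210, 670 and 150 CPM, and miR-98-5p at 161, 597 and 141 CPM. By CPM all 6 were highest at P30d, and 4 of them (let-7c, let-7d, let-7e and miR-98) were lowest at P7y. On the TMM scale let-7b and let-7i were highest at P7y instead, and those 4 were lowest at E90.

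**Figure D1:**
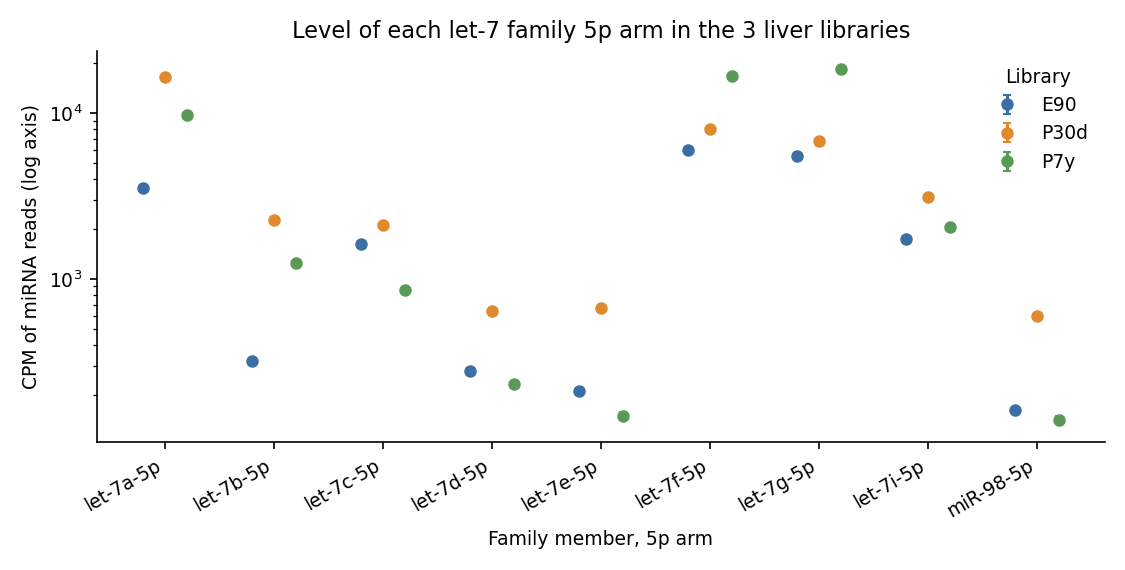
CPM of the 5p arm of each member (log axis) in the E90, P30d and P7y libraries, with exact 95% counting intervals, most of them smaller than the points. let-7f and let-7g are highest at P7y (16666 and 18456 CPM), and the other 7 members are highest at P30d, let-7a at 16430 CPM, an order by CPM that TMM factors reverse between P30d and P7y for let-7a, let-7b and let-7i.

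The order of the members changed at its head and in its middle. At E90 it ran let-7f, let-7g, let-7a, let-7i, let-7c, let-7b, let-7d, let-7e and miR-98, and the intervals of no neighbours overlapped. At P30d it ran let-7a, let-7f, let-7g, let-7i, let-7b, let-7c, let-7e, let-7d and miR-98. There the intervals of let-7e and let-7d overlapped, as did those of let-7d and miR-98. At P7y it ran let-7g, let-7f, let-7a, let-7i, let-7b, let-7c, let-7d, let-7e and miR-98, with let-7e and miR-98 not separated by their intervals. The most abundant member exceeded miR-98, the last in all 3 libraries, 37.1-fold, 27.5-fold and 131-fold at E90, P30d and P7y. The distance from first to last member was therefore smallest at P30d and largest at P7y. The share of the family's 5p reads held by the most abundant member was nevertheless largest at P30d. It was 40.5% there (let-7a), against 30.9% at E90 (let-7f) and 37.3% at P7y (let-7g).

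Shares within the family do not depend on the total to which a library is scaled. let-7a made up 18.3% of the family's 5p reads in the E90 library (18.1 to 18.4, exact Clopper-Pearson), 40.5% in the P30d library (40.2 to 40.7) and 19.6% in the P7y library (19.5 to 19.7). let-7f held 30.9%, 19.7% and 33.7%, and let-7g 28.4%, 16.6% and 37.3%. At P30d let-7a thus stood above both, with 2.05 let-7a reads for each let-7f read, against 0.591 at E90 and 0.582 at P7y. The ratio of let-7a to let-7g was 0.644, 2.43 and 0.525. The ratio of let-7f to let-7g moved far less, at 1.09, 1.19 and 0.903. The 6 remaining members together held 22.5%, 23.2% and 9.45% at E90, P30d and P7y.

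The change of each share was expressed as the log2 odds of a family read being that member, later over earlier library, with an exact conditional interval, and was called where it was 1 or more in size and the interval excluded 0. From E90 to P30d, 2 of 9 members gained share, let-7a by 1.60 (1.58 to 1.63) and let-7b by 1.82 (1.76 to 1.88), and none lost share by this rule, although let-7g stood at -0.99 (-1.02 to -0.97) and passed it with -1.01 by copies of the representative read alone. From P30d to P7y, let-7f gained 1.05 (1.03 to 1.07) and let-7g 1.58 (1.56 to 1.60), while 6 members lost share, from -1.21 for let-7b to -2.46 for let-7e, and let-7i stood at -0.94 (-0.98 to -0.91), which became -1.18 without mismatched reads and -1.22 by representative reads. The gain of let-7f lay close to the size required and fell under it, to 0.994 without mismatched reads and 0.996 on pig hairpins alone. From E90 to P7y no member gained share by this rule, and 5 lost it: let-7c at -2.38, let-7d at -1.63, let-7e at -1.85, let-7i at -1.19 and miR-98 at -1.56. let-7a and let-7f had similar shares at E90 and P7y, with log2 odds of 0.12 (0.10 to 0.14) and 0.18 (0.17 to 0.20). The comparisons share libraries, so they are not independent of each other.

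**Figure D2:**
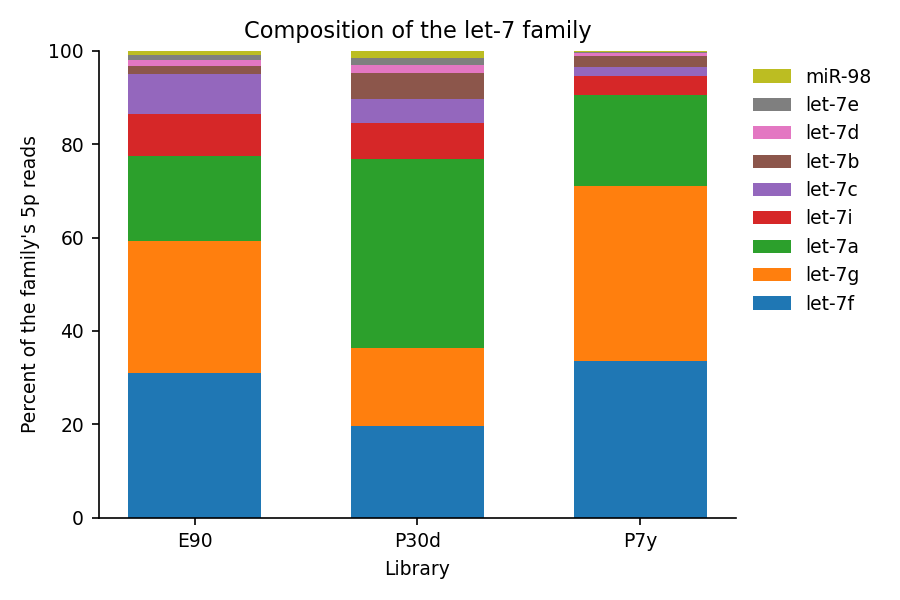
Stacked bars of the percent of the family's 5p reads held by each of the 9 members in the 3 libraries. let-7a takes 40.5% at P30d against 18.3% at E90 and 19.6% at P7y, and let-7f with let-7g takes 59.3%, 36.3% and 71.0%.

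Levels were compared as log2 ratios of CPM (the later library divided by the earlier), and an arm was called higher or lower where the ratio was 1 or more in size and its exact conditional interval excluded 0. From E90 to P30d, 5 of 9 members had a higher 5p arm and none a lower one. Over all 324 arms tested, 33.3% were higher and 35.5% lower, 68.8% in all, and the median was -0.11. let-7b-5p was higher by 2.83 (2.77 to 2.89), let-7a-5p by 2.22 (2.20 to 2.24), miR-98-5p by 1.89 (1.79 to 1.99), let-7e-5p by 1.67 (1.59 to 1.76) and let-7d-5p by 1.20 (1.12 to 1.28). The other 4 were above 0 but under the size required, with let-7i-5p at 0.84, let-7f-5p at 0.42, let-7c-5p at 0.38 and let-7g-5p at 0.30. The median of the 9 was 1.20. With TMM factors the same count of 5 was obtained, against 32.4% of all arms higher and 37.3% lower (69.8% in all).

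From P30d to P7y the members went in both directions. let-7g-5p was higher by 1.45 (1.43 to 1.47) and let-7f-5p by 1.06 (1.04 to 1.07). Only 13.6% of all arms were higher in this comparison, 55.9% were lower and 69.4% were called in all, and the median of all arms was -1.36. let-7e-5p was lower, at -2.16 (-2.25 to -2.06), as were miR-98-5p at -2.09, let-7d-5p at -1.46 and let-7c-5p at -1.30. let-7b-5p, let-7a-5p and let-7i-5p stood at -0.87, -0.76 and -0.61, under the size required, although let-7b-5p passed it with -1.16 by copies of the representative read alone. The TMM factors raised every ratio of this comparison by 1.07. On that scale let-7f-5p and let-7g-5p stood at 2.13 and 2.53, let-7e-5p at -1.08 and miR-98-5p at -1.01 were still lower, let-7c-5p at -0.23 and let-7d-5p at -0.38 were not, and let-7a-5p, let-7b-5p and let-7i-5p turned to 0.31, 0.20 and 0.47. The background on that scale was 27.8% higher and 34% lower (61.7% in all). Relative to the median of all arms, let-7c-5p and let-7d-5p thus stood near the middle of the distribution, at percentiles 51.9 and 49.1, and let-7g-5p and let-7f-5p at 90.4 and 86.7.

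Between the ends of the series, E90 and P7y, 4 of 9 members had a higher 5p arm and none a lower one. In this comparison 12% of all arms were higher and 50.6% lower, 62.7% in all, with a median of -1.06. let-7b-5p stood at 1.96 (1.90 to 2.02), let-7g-5p at 1.75 (1.74 to 1.77), let-7f-5p at 1.48 (1.47 to 1.49) and let-7a-5p at 1.46 (1.44 to 1.48). The other 5 lay between -0.92 for let-7c-5p and 0.24 for let-7i-5p. Counted by copies of the representative read alone, let-7c-5p stood at -1.36 and passed the size rule. The TMM factors raised every ratio here by 1.01, which brought let-7i-5p to 1.24 and above the size required, so that 5 of 9 were higher against 27.8% of all arms, with 33.3% lower and 61.1% called in all. The 4 values below 0 (let-7c-5p, let-7d-5p, let-7e-5p and miR-98-5p) turned to 0.09, 0.75, 0.52 and 0.81 on that scale and passed the size rule on neither.

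**Figure D3:**
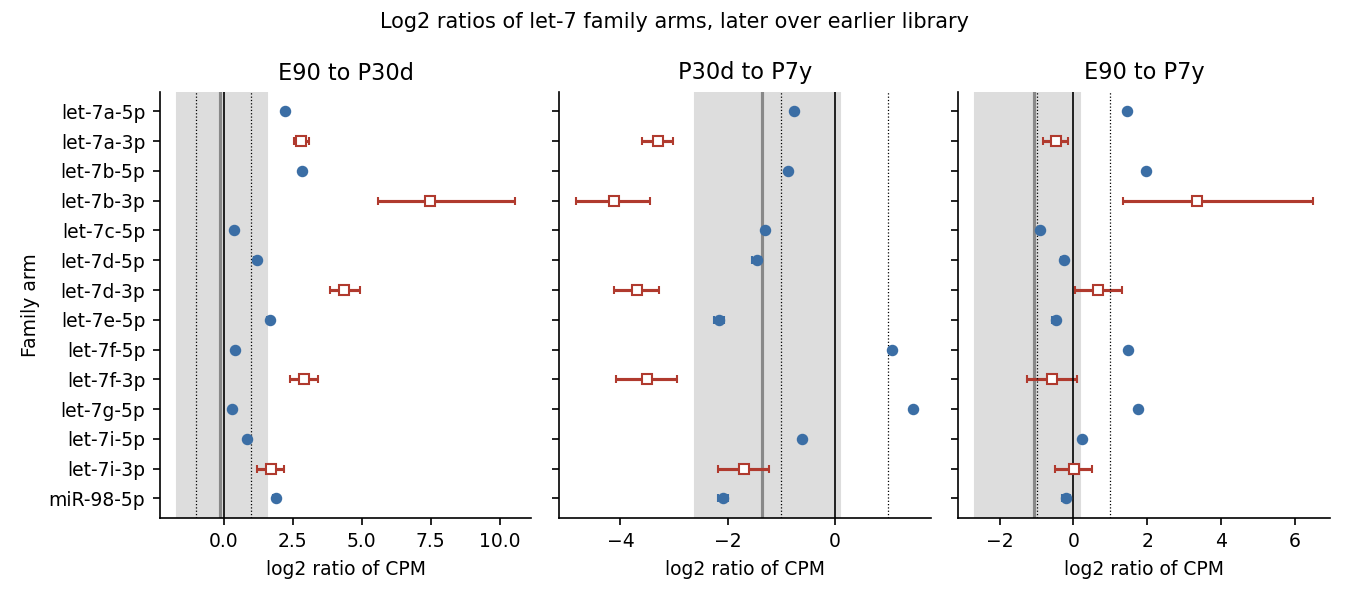
Log2 ratios of CPM between pairs of libraries for the 14 family arms tested (filled circles 5p, open squares 3p, bars exact 95% counting intervals) in the 3 comparisons. The grey band spans the middle 50% of all 324 arms, the grey line is their median (-0.11, -1.36 and -1.06), and dotted lines mark 1 and -1. From P30d to P7y only let-7f-5p and let-7g-5p lie to the right of 0.

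Members that lie beside each other in the genome did not keep fixed proportions. On chromosome 3 let-7a outnumbered let-7d 12.6-fold, 25.6-fold and 41.4-fold at E90, P30d and P7y, although a part of the let-7a reads may come from the chromosome 9 copy. On the X chromosome let-7f outnumbered miR-98 37.1-fold, 13.4-fold and 119-fold, with the same reserve for the let-7f copy on chromosome 3. The partners of the other hairpins were followed as a list of 10 arms (miR-99a, miR-99b, miR-100, miR-125a and miR-125b), of which 7 were tested. Of these, 2 were higher and 2 lower from E90 to P30d, 2 higher and 1 lower from P30d to P7y, and 1 higher and 0 lower from E90 to P7y. Over all arms tested 33.3% were higher and 35.5% lower, 13.6% and 55.9%, and 12% and 50.6% in the same order. The partners' medians were -0.56, 0.74 and 0.09.

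miR-99a-5p, the neighbour of let-7c and one of the most abundant miRNAs of these libraries, stood at 89255, 49508 and 95208 CPM at E90, P30d and P7y. It exceeded let-7c-5p 54.8-fold, 23.3-fold and 111-fold. Its level was thus lowest at P30d, where that of let-7c was highest. On chromosome 6 miR-99b-5p stood at 8590, 3313 and 6630 CPM, which was 40.9-fold, 4.94-fold and 44.2-fold above let-7e-5p. Beside them miR-125a-5p stood at 3671, 4281 and 7147 CPM. On chromosome 9 miR-100-5p stood at 26524, 18025 and 44804 CPM, again lowest at P30d. The partner that kept its proportion was miR-125b-5p, with 2215, 11911 and 7112 CPM, or 0.628, 0.725 and 0.733 reads for each let-7a-5p read. Further hairpins can produce miR-125b, so this ratio is not one of a single cluster.

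The 3p arms were rare. The 9 members had 397, 1239 and 386 reads of the 3p arm at E90, P30d and P7y, which was 0.222% (exact Clopper-Pearson interval 0.200 to 0.245), 0.835% (0.789 to 0.883) and 0.0786% (0.0709 to 0.0868) of the family's reads. In all other named miRNAs the less abundant arm held 1.82%, 2.44% and 1.38%. The family lay below the other miRNAs in each library, and both were highest at P30d. let-7a-3p had 169, 468 and 130 reads, let-7d-3p 35, 284 and 60, let-7f-3p 46, 136 and 33, and let-7i-3p 65, 83 and 70. let-7b-3p had 2, 139 and 22 reads at E90, P30d and P7y. let-7e-3p (33, 24 and 64 reads), let-7g-3p (23, 53 and 2), miR-98-3p (8, 42 and 0) and let-7c-3p (16, 10 and 5) did not reach the mean of 10 CPM. miR-98-3p was thus not detected at P7y, where a count of 0 allows up to 0.302 CPM, against 11.6 CPM at P30d.

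Of the 5 family 3p arms tested, 5 were higher at P30d than at E90, 5 were lower at P7y than at P30d, and 1, let-7b-3p, was higher at P7y than at E90. The ratios from E90 to P30d were 7.47 for let-7b-3p (5.59 to 10.5, resting on 2 reads at E90), 4.37 for let-7d-3p (3.86 to 4.92), 2.92 for let-7f-3p (2.42 to 3.43), 2.82 for let-7a-3p (2.56 to 3.08) and 1.70 for let-7i-3p (1.22 to 2.20). By copies of the representative read alone they were 7.05, 4.55, 2.17, 2.55 and 1.10 in the same order. Among 81 other less abundant arms that were tested, 32 were higher and 25 lower in this comparison, with a median of 0.14. From P30d to P7y the 5 arms lay between -4.11 (let-7b-3p) and -1.70 (let-7i-3p), and 44 of the 81 others were lower and 5 higher, with a median of -1.32. With the TMM factors 4 of the 5 remained past the size rule in this step, and let-7i-3p stood at -0.63. From E90 to P7y the same factors brought let-7d-3p to 1.68 and let-7i-3p to 1.01, past the size rule. From E90 to P7y, 6 of the 81 others were higher and 34 lower, with a median of -0.76. An arm enters the tested set through the library where it is high, so these counts are no measure of the family's 3p arms as a whole.

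The 2 arms of a member did not always move together. let-7f-5p was higher at P7y than at P30d by 1.06 while let-7f-3p was at -3.50 (-4.09 to -2.94). By copies of the representative read alone let-7f-3p stood at -2.64, outside that interval. Reads of 3p arms too were shared out between hairpins. On the X chromosome line of let-7f-3p the copies exceeded the reads, with 57 against 33 at P7y. let-7d had the largest 3p share of the family at P30d, with 10.9% of its reads, where E90 and P7y had 1.33% and 2.52%. let-7a, let-7b, let-7d and let-7i were below 0 on both arms from P30d to P7y by CPM, although TMM factors put let-7a-5p, let-7b-5p and let-7i-5p above 0. The 3p share of let-7e was largest at P7y instead, with 1.67%, 0.979% and 4.12% at E90, P30d and P7y, on 33, 24 and 64 reads. Its 3p arm, which was not tested, stood at 3.57, 6.62 and 6.45 CPM. The larger share at P7y than at P30d thus lay in the lower let-7e-5p. The balance of arms was compared for the 2 members with at least 50 reads of both arms in every library. let-7a shifted towards 5p from P30d to P7y by a log2 odds of 2.54 (2.26 to 2.83) and from E90 to P7y by 1.94 (1.60 to 2.28), and stood at -0.60 (-0.87 to -0.34) from E90 to P30d. let-7i shifted towards 5p from P30d to P7y by 1.09 (0.62 to 1.57) and passed the size rule in no other pair. Without mismatched reads that shift was 0.69 (0.19 to 1.18), under the size required, and let-7a had too few 3p reads to compare. Among 56 other miRNAs measured this way, shifts of 1 or more in either direction were common. They were seen in 69.6% from E90 to P30d, 69.6% from P30d to P7y and 42.9% from E90 to P7y. Towards 5p went 18, 17 and 9 of the 56 in the same order. The median size over the 56 was 1.66, 1.71 and 0.90. Both called shifts of let-7a were larger than the median of their comparison, and the called shift of let-7i, at 1.09, was smaller.

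The bases at the end of the 3p arm set several members apart. The representative 3p reads on the pig hairpins are shown because a single base, the last, distinguishes some of them from the hairpin, while the others match it. Lower case is the hairpin's own sequence, and a capital marks a base that differs from it.
let-7a-3p (chromosome 3): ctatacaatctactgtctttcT
let-7f-3p (chromosome 3): ctatacaatctattgccttccT
let-7f-3p (X chromosome): ctatacagtctactgtctttcT
let-7g-3p (P30d): ctgtacaggccactgccttgcT
miR-98-3p: ctatacaacttactactttccT
let-7d-3p (E90 and P30d): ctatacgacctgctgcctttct
let-7i-3p: ctgcgcaagctactgccttgct
let-7c-3p: ctgtacaaccttctagctttcc
let-7e-3p (E90 and P30d): ctatacggcctcctagctttcc

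Counted from the first base of the read, the first 5 carry C22T (the hairpin's base, the position, then the read's base). let-7d-3p and let-7i-3p end in a T that the hairpin itself holds, and let-7c-3p and let-7e-3p end in the hairpin's C. The same C22T read represented let-7a-3p of chromosome 3 and let-7f-3p of the X chromosome in all 3 libraries. It also represented let-7f-3p of chromosome 3 and miR-98-3p at E90 and P30d. let-7g-3p was represented by a read of 21 bases without it at E90 and P7y, and at P7y let-7d-3p was represented by a read with T22C. Over the pig hairpin lines of the 3 tables with at least 20 reads, 9 of 19 family 3p lines ended in a T that the hairpin lacks, or 47.4%, against 32 of 397 lines of other named miRNAs, or 8.06%. On the 5p arm this was so for 0 of 30 family lines and 8 of 404 others, or 1.98%. Lines of the same hairpin in different libraries are not independent.

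The hairpin of let-7a-2 on chromosome 3 shows where these reads come from. It is given on the plus strand, with the 5p and 3p arms in capitals, the latter with the hairpin's own last base.
let-7a-2: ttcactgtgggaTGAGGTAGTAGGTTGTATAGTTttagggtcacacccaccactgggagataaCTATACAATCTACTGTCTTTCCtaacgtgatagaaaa

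The share of reads with a mismatch, over all reads of an arm, also differed between members. On let-7a-3p it was 93.5% at E90 (158 of 169 reads, exact Clopper-Pearson interval 88.7 to 96.7), 90.2% at P30d (422 of 468, 87.1 to 92.7) and 100% at P7y (130 of 130, 97.2 to 100). In each library 3 of these reads lay on a line other than that of chromosome 3, with another sequence. The chromosome 3 line alone gave 93.4%, 90.7% and 100%. On let-7f-3p it was 89.1% (41 of 46), 82.4% (112 of 136) and 100% (33 of 33). At P30d it was 82.7% on let-7b-3p (115 of 139), 71.7% on let-7g-3p (38 of 53) and 69.0% on miR-98-3p (29 of 42). At E90 let-7g-3p stood at 21.7% (5 of 23) and miR-98-3p had 8 of 8, and at P7y let-7b-3p had 17 of 22 and let-7g-3p 0 of 2. It was low on let-7i-3p, with 10.8% (7 of 65), 14.5% (12 of 83) and 0 of 70 reads, and let-7c-3p had 0 of 16, 0 of 10 and 0 of 5. let-7d-3p stood at 17.1% (6 of 35), 12% (34 of 284) and 43.3% (26 of 60), and let-7e-3p at 21.2% (7 of 33), 37.5% (9 of 24) and 0 of 64. The 3p arms of other miRNAs on pig hairpins with at least 20 reads had a median of 15.7% at E90 (129 arms), 20.6% at P30d (115 arms) and 22.4% at P7y (110 arms). Among them 10.1%, 12.2% and 12.7% of arms had a share above 50%, against 2 of 6, 4 of 7 and 2 of 5 family arms. The tables do not say which base of a read mismatched, so only the representative reads place it at the last base.

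**Figure D4:**
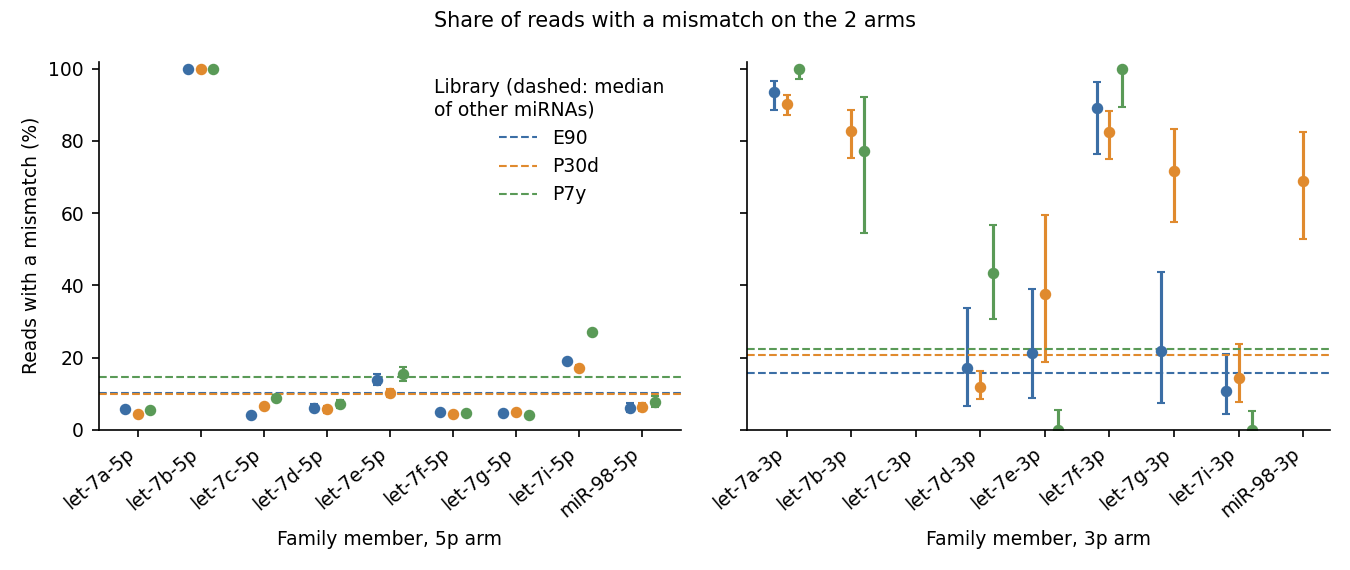
Percent of reads with a mismatch on the 5p arm (left) and the 3p arm (right) of each member with at least 20 reads, with exact 95% intervals, and dashed lines at the median of other miRNAs on pig hairpins. let-7a-3p and let-7f-3p lie above 80% in all 3 libraries, while let-7i-3p stays under 15%. let-7b-5p, which had no line on a pig hairpin, stands near 100%.

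On the 5p arm the mismatched share differed between members. It lay between 4.06% (let-7g at P7y) and 8.96% (let-7c at P7y) for let-7a, let-7c, let-7d, let-7f, let-7g and miR-98 in all 3 libraries. let-7e stood at 13.8%, 10.17% and 15.4%. let-7i had the highest share of the members with a pig hairpin, with 19% in the E90 library (18.4 to 19.6), 17.2% in that of P30d (16.5 to 17.9) and 27.1% in that of P7y (26.5 to 27.7). Medians of other 5p arms were 10.3%, 10.01% and 14.6%. let-7b stood at 99.9% in each library. Its reads at the let-7c hairpin all carried a mismatch (A17G in the representative read). Those on let-7b hairpins of other species also did nearly throughout, in 406 of 408 reads at E90, 736.5 of 743.5 at P30d and 2409.5 of 2416.5 at P7y, with T22A in the representative read at E90 and P7y and T23A at P30d.

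By its copies over the arm's reads, the 22-base read printed above for each member took a smaller part at P7y than at E90 in all 9 members. For let-7c it held 90.1%, 77.9% and 64.3% of the 5p reads at E90, P30d and P7y. For let-7a it held 83.7%, 73.6% and 67.3%, and for let-7b 65.5%, 59.9% and 41.3%. It held 88.7%, 76.8% and 78.2% for let-7g, 85.5%, 70.7% and 71.5% for let-7f, and 79.4%, 76.8% and 70.6% for miR-98. let-7d stood at 72.7%, 70.1% and 64.1%, and let-7e at 69.0%, 69.6% and 60.4%. let-7i stood at 70.3%, 74.0% and 60.4%. The medians over the 9 members were 79.4%, 73.6% and 64.3%. Among 54 other arms with the same representative read and at least 1000 reads in each library, the share was lower at P7y than at E90 in 39, with medians of 63.9%, 55.7% and 57.2%. Copies are whole counts, capped here at the arm's reads, while the arm's reads are counts shared out between hairpins. These percents are therefore ratios of unlike counts, and their intervals are approximate. The remaining reads of an arm include length or base variants, which the tables do not list one by one, and also depend on how reads were shared out.

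**Figure D5:**
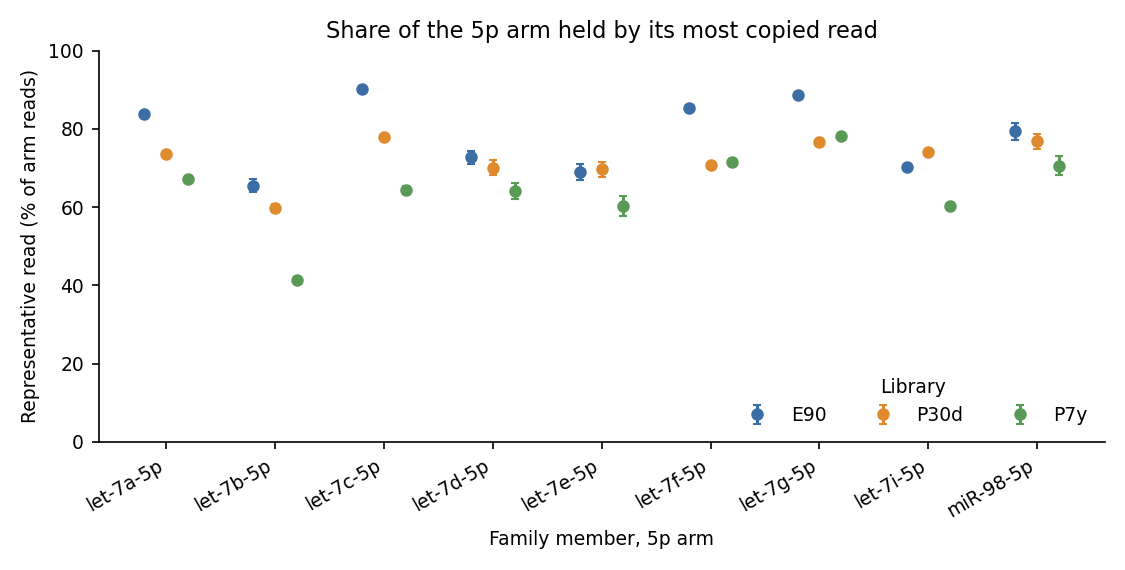
Copies of the most copied read as a percent of each 5p arm's reads in the 3 libraries, with 95% intervals computed as for a share. Copies are whole counts and the arm's reads are shared-out counts, so the intervals are approximate. Every member is lower at P7y than at E90, from 88.7% to 78.2% in let-7g and from 65.5% to 41.3% in let-7b.

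Among 62 other arms with a mean of at least 1000 CPM, those closest to the summed 5p level of the family (19322, 40611 and 49495 CPM at E90, P30d and P7y) by Euclidean distance of centred log2 CPM over the 3 libraries were miR-29a-3p at a distance of 0.300, miR-125a-5p at 0.602, miR-10b-5p at 0.666, miR-21-5p at 0.736 and miR-126-5p at 0.745. miR-29a-3p stood at 1311, 2059 and 2815 CPM. The profile of let-7a alone was closest to that of miR-125b-5p, at 0.177, a pair named after its values were seen. A likeness over 3 libraries is a description and has no measure of error.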

How the data were processed

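Small RNA of 14 to 40 nt from pig liver was sequenced on a Genome Analyzer II, per the labels' protocols, in 1 library per stage. Hairpins of known pig and other mammalian miRNAs and the pig genome served the authors as mapping targets, per the file headers. Reads that fit several hairpins were shared out, so the deposited values per arm are expected counts, as are the deposited numbers of mismatched and exact reads (estimated counts). Copies of a representative read are deposited as whole counts. Sscrofa10.2 is the build in the submitters' processing notes. Aligner, mismatch limit and miRBase release: not given in the sources used here.

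Expected counts were summed per name and arm and rounded to whole numbers, and 17 names were merged into others where the same read of at least 18 nt held over 50% of both. Predicted hairpins were left out of totals. The lines of let-7b typed as 3p whose read bore the seed (38 reads at P30d, 145 at P7y) were counted as 5p. Ratios have exact conditional binomial intervals, a count of 0 was set to 3 reads, and arms with a mean under 10 CPM were left out. Shares have exact Clopper-Pearson intervals. With single libraries there is no residual spread, so p-values were not computed. The members were fixed by name, all 9 and the partner miRNAs are named in full, and the 5 arms of closest profile by rule. The members and lists were chosen with earlier results of these data known. The comparison was run on simulated counts with planted changes and counting error alone. Such counts hold no variation between pigs or from PCR, so this run checks the calculation and not the calls. TMM factors came from edgeR 4.0.16 and size factors from DESeq2 1.42.0, used for scaling alone. Other steps ran in R 4.3.3 and in Python 3.11.15 with SciPy 1.17.1, NumPy 2.4.6, pandas 2.3.3 and matplotlib 3.10.9. Of the pig hairpins, 10 of 10 were matched by name to RefSeq's gene table (Sscrofa11.1).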

Additional observations from a re-analysis of the deposited data

Results flagged for a closer look

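Lines named let-7j, a name outside the 9 members, carried the family's seed, with 59, 69 and 226 reads in the E90, P30d and P7y libraries, above the 3 reads that a count of 0 allows. Their read, tgaggtagtagtttgtgctgttAT, is that of let-7i-5p with 2 further bases (capitals), and the reads were 0.367%, 0.610% and 1.11% of those of let-7i-5p. They were not counted in the family.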

How the results depend on the processing

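No paired analysis was possible because each stage has 1 library, and no library could be left out. The number of family arms called from E90 to P30d was 10 of 14, from P30d to P7y 11 and from E90 to P7y 5. Over all 324 arms, 68.8%, 69.4% and 62.7% were called in the same order. Of the 14 family arms, 5 were 3p arms, and an arm enters the tested set through the library where it is high. A filter at 100 CPM leaves 9 arms, and 5, 6 and 4 were called. Without mismatched reads, which leaves 10 arms, 6, 8 and 3 were called. Pig hairpins alone, which leave out let-7b, gave 8, 10 and 3 of 12, and no filter gave 12, 14 and 8 of 18. TMM and DESeq2 scaling each gave 10, 8 and 8 of 14, and with TMM 69.8%, 61.7% and 61.1% of all arms were called. With DESeq2, 108, 90 and 91 of all 324 arms were higher and 115, 112 and 108 lower. For the settings with another filter or none, without mismatched reads and on pig hairpins, the share over all arms was not computed. Counts under the settings not listed here were within 1.5 times the reported ones. Over all arms, the share of called arms that were higher went from 19.6% to 45.0% (TMM) and 44.6% (DESeq2) from P30d to P7y, and from 19.2% to 45.5% and 45.7% from E90 to P7y.

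The family's share at E90, P30d and P7y was 4.201%, 8.90% and 13.4% of a total without the most abundant miRNAs, 2.19%, 4.21% and 5.81% without mismatched reads, 2.95%, 5.30% and 6.66% by representative reads, and 1.98%, 4.05% and 4.93% on pig hairpins. Its order over the libraries was the same in each. Assigning lines by the closest sequence with let-7j included, a setting chosen after seeing the data, moved no share beyond its interval.

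Log2 ratios that changed sign under TMM and DESeq2 scaling from P30d to P7y were let-7a-5p (0.31 and 0.29), let-7b-5p (0.20 and 0.17) and let-7i-5p (0.47 and 0.44). From E90 to P7y they were let-7a-3p (0.53 and 0.57), let-7c-5p (0.088 and 0.13), let-7d-5p (0.75 and 0.79), let-7e-5p (0.52 and 0.56), let-7f-3p (0.43 and 0.47) and miR-98-5p (0.81 and 0.85). Without the most abundant miRNAs in the total, let-7d-5p turned to 0.065 and miR-98-5p to 0.13. let-7i-3p turned to -0.020 on pig hairpins. By representative reads, the log2 odds of let-7i in the family from E90 to P30d turned to 0.051. Of the 27 shares of members, 15 were called, and 13 to 17 in the alternatives that kept all 27. Pig hairpins alone, which leave out let-7b, gave 12 of 24. Of 6 arm balances 3 were called. Without mismatched reads let-7i alone had enough reads, and 0 of its 3 were called; its log2 odds from E90 to P7y turned to -0.083. At least 200 reads of both arms left no member, so that setting has no value. Of the 9 3p arms, 4 did not reach the mean of 10 CPM and were not compared.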
